A study of Mus musculus with 2 samples.

Results

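The mRNAs described here encode core proteins of the spliceosome. These are the Sm and LSm proteins that form rings around small nuclear RNAs, and other proteins of the U1 and U2 small nuclear ribonucleoproteins (snRNPs). The splicing factors SF3a and SF3b, and U2AF, complete the set. Members were the coding RefSeq accessions on the array whose gene name began with Snrp, with Lsm and a number, with Sf3a or Sf3b and a number, or with U2af. The rule found 35 accessions of 35 genes, read by 51 probes, among 18743 coding accessions with a usable spot. The rule uses names and no measured value, but it was set with earlier results of these data known. The members were split by lists of names, not by measured length, into 16 Sm and LSm ring proteins, called small, and 19 other factors, called larger. These class names do not rank the members by size, since the larger class also holds Sf3b5, a small subunit of SF3b. The larger class includes 4 LSm-domain proteins, Lsm11, Lsm12, Lsm14a and Lsm14b, and results without them are given below.

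The samples were NIH3T3 cells, an established mouse fibroblast line, grown in medium with 10% serum and either left untreated (control) or exposed to 10 µM thapsigargin for 3 h (stress). Thapsigargin blocks the calcium pump of the endoplasmic reticulum and so provokes the unfolded protein response, during which phosphorylation of eIF2 lowers overall protein synthesis. Sucrose gradients of 10 to 40% separated the lysates, and the RNA of polysomes (P, labelled with Cy3) and that of free particles and monosomes (FM, labelled with Cy5) were pooled separately and competed on a two-colour array. Each condition had 1 array made from 3 pooled preparations, so no value below has a replicate check and no test between the conditions was made.

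Translation efficiency is given as log2 P/FM, the log2 of an mRNA's P signal over its FM signal, and signal level as A, the mean of both log2 signals. The change is the stress value minus the control value. The nearest substitute for an error was the spread between different probes of one mRNA. Over 3438 mRNAs with several probes, its median standard deviation (SD) was 0.29 in control, 0.28 under stress and 0.32 for the change. It covers differences between probes within the same arrays. An error common to a whole array and the spread between preparations do not enter it and were not measured. All 35 members had A above 4.5 on both arrays, the level used to call an mRNA detected, as did 10033 coding mRNAs in all.

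Sm proteins are made in the cytoplasm and are loaded as a ring onto U1, U2, U4 and U5 snRNAs before these return to the nucleus. A related ring of LSm proteins binds U6 snRNA, and a cytoplasmic version of it, in which Lsm1 takes part, assists the decapping of mRNAs. The U2 snRNP recognises the branch point of an intron with the help of SF3a and SF3b, after the U2AF heterodimer has bound the polypyrimidine tract and the end of the intron. These proteins are needed in all cells, and most of them are held in large, stable complexes.

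The values rest on probes of 60 bases, of which a chosen few are printed here 5′ to 3′ in the sense of the mRNA. Each is named by gene, with letters a and b for the first and the second along the transcript. Probes of other members named below, such as Lsm3, Lsm4, Sf3b4 and Snrpc, are not printed. Positions are on mm9, as given in the array files. Snrpb had a single probe, at chr2:130001112-130001171 on the minus strand, and it gave the highest control value of all mRNAs.
Snrpb: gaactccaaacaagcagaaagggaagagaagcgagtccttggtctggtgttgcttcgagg
Snrpn and Lsm2 each had a pair of probes that cover overlapping stretches of the transcript, so that each pair reads nearly the same bases. Capitals mark the overlap, which is 43 bases with 2 differing bases for Snrpn (starting at chr7:67132347-67132406 and chr7:67132330-67132389, minus strand) and 50 bases with 0 differing bases for Lsm2 (starting at chr17:35119567-35119626 and chr17:35119577-35122057, plus strand).
Snrpn a: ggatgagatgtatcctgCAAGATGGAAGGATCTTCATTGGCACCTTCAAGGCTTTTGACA
Snrpn b: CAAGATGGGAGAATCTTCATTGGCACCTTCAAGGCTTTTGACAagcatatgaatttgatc
Lsm2 a: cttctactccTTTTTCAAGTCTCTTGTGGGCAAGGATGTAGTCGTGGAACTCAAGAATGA
Lsm2 b: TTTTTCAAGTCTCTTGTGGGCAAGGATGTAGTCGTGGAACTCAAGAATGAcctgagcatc
The next probes read Snrpa1 (chr7:73214088-73214357, plus strand) and U2af1 (chr17:31785202-31785261, minus strand), which had lower P/FM under stress.
Snrpa1: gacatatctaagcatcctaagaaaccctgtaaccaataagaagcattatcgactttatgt
U2af1 b: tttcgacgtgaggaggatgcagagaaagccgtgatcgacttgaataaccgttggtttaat
The last pair read subunits of SF3b whose changes had opposite signs, Sf3b1 (chr1:55069101-55071370, minus strand) and Sf3b5 (chr10:12728593-12728652, plus strand).
Sf3b1 a: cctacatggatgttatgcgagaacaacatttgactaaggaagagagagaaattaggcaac
Sf3b5: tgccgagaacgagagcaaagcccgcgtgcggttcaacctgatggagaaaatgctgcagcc
The printed probes of Snrpa1 and Sf3b1 and the probe Lsm2 b cover more than 60 bases of the genome, and so cross an exon junction. In all, 11 of the 51 probes did. The array files list predicted gene models beside the RefSeq accession for 15 probes of 10 members, whose signals could hold RNA of such copies. These members are Snrpd1, Snrpd2, Snrpf, Snrpa, Snrpa1, Snrpc, Sf3b4, U2af1, Lsm6 and Lsm7. Snrpb and Snrpn encode closely related proteins, and whether a probe of one also reads the mRNA of the other was not tested.

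Both arrays were alike in coverage. Of 43379 spots for transcripts, 42.5 to 46.3% were well above background per channel and array, and 0 were saturated. All 10 fibroblast markers examined were detected on both arrays, as was 1 of 10 markers of other cell types, Cd3e, with A of 6.06 and 5.93. Among mRNAs known to respond to this stress, log2 P/FM went from -1.60 to 1.83 for Atf4, and A went up by 3.71 for Ddit3. No normalization was applied, following the study. Its methods state that RNA was labelled in the proportions found in each condition, with more P than FM RNA in control and more FM than P RNA under stress. This difference in input can enter every change on the unnormalized scale. In addition, 10 spike-in probes moved from a median of -0.40 to -2.95, and the part of the input in that shift was not tested. Shifting each array to put the spike-ins at 0 would add 2.55 to every change, which turns the median change of all mRNAs from -0.71 to 1.84 and that of every group of members positive. Directions below therefore hold on the unnormalized scale, and the position of a group relative to all mRNAs does not move with such a shift.

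In growing cells most spliceosome core mRNAs lay on the polysome side. The median log2 P/FM of the 35 members was 0.89, beside 0.34 for the 10033 mRNAs detected on both arrays, and 28 of 35 lay at or above 0, beside 62.3% of the 10297 mRNAs detected in control. Control values rose with signal level among all mRNAs, and the members were bright. Set against mRNAs of like signal level, in the classes given below, their median difference in control was 0.28. Values of 2 or more were found for 6 of 35 members, beside 3.22% of all mRNAs. These were Snrpb at 3.63, Lsm4 at 2.63, Snrpd1 at 2.44, Sf3b4 at 2.19, Snrpa1 at 2.18 and Snrpc at 2.15. Sf3b4, Snrpa1 and Snrpc differed from each other by less than the spread between probes. Their probes, and that of Snrpd1, are among those with predicted gene models listed. At the other end stood Snrpg at -1.23, Lsm5 at -1.56, Lsm6 at -1.71 and Lsm3 at -2.46, all of them small ring proteins. The LSm and Sm rings thus held both ends of the range. In RNA pooled from many cells, a value that differs in every cell and one that differs in some of them cannot be told apart.

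With thapsigargin the median of the members was -0.55 and their median change -1.32, beside a median change of -0.71 for all mRNAs. Log2 P/FM was lower under stress for 30 members and higher for 5, and it was lower for 70.7% of all mRNAs. A change of -0.8 or lower, the level at which the study calls an mRNA sensitive, was found for 25 of 35 members, beside 47.0% of all mRNAs. With loess normalization within arrays that count was 13 of 35 beside 27.2% of all mRNAs, and 26 members were lower beside 55.5% of all mRNAs. With signals dye-normalized by the scanner software it was 15 beside 32.6%, and 26 members were lower beside 58.7% of all mRNAs. Of 35 members, 1 was resistant (0.8 or more on both arrays), beside 3.00% of all mRNAs, and 2 were inducible (0 or lower in control with a change of 1 or more), beside 8.86%. No member had a change in A of 1 or more, beside 11.7% of all mRNAs.

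**Figure D1:**
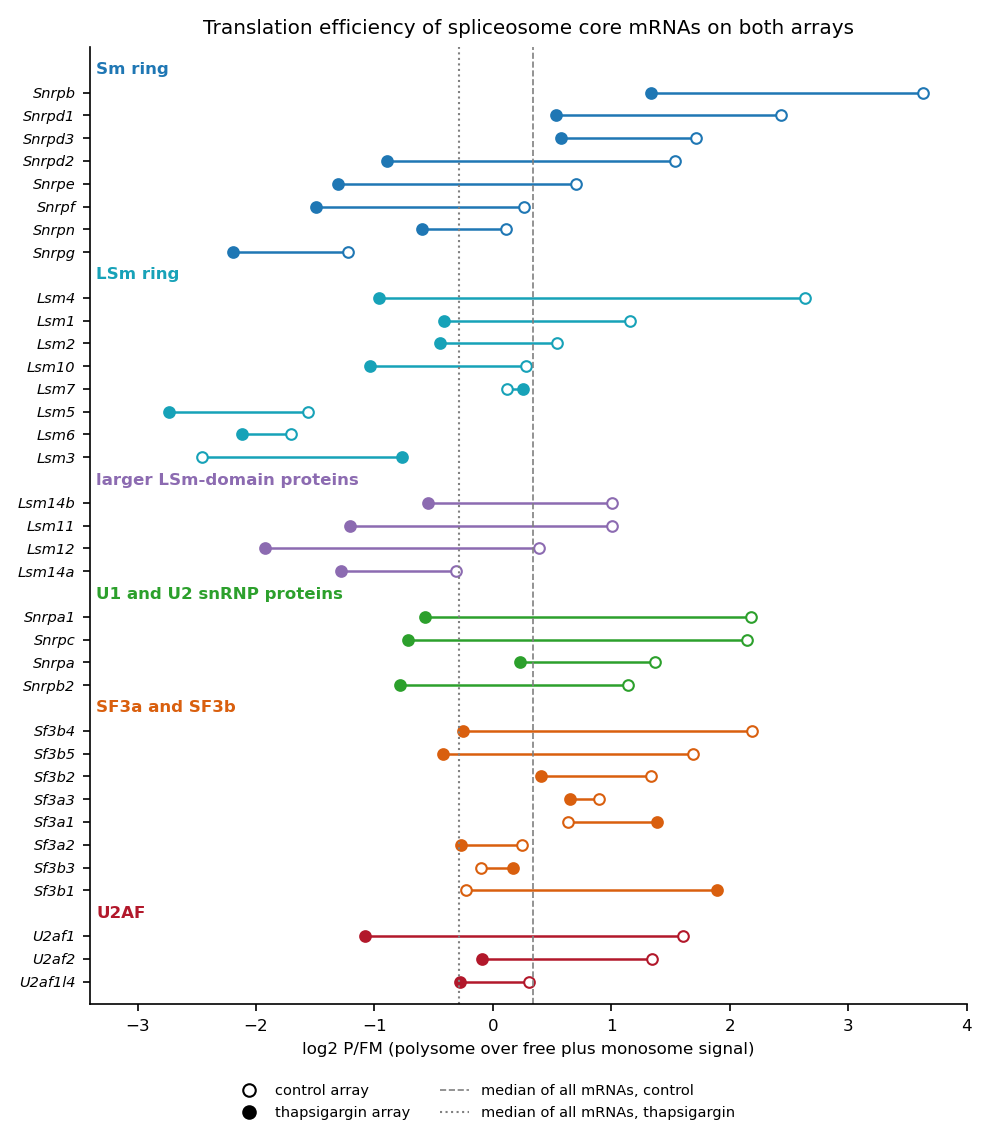
Log2 P/FM (x axis, log2 scale) of each of the 35 members on the control array (open circles) and the thapsigargin array (filled circles), by role, with the medians of all 10033 mRNAs as vertical lines. Without normalization the filled circle lies to the left for 30 members and to the right for Lsm3, Lsm7, Sf3a1, Sf3b1 and Sf3b3. Scaling on the spike-ins would move every filled circle 2.55 to the right of its place relative to the open one.

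Changes went with signal level on these arrays, and the members were brighter than most mRNAs, with a median of mean A of 9.64 beside 7.65. The median change of all mRNAs was -0.24 where mean A was 4.5 to 7, -0.67 from 7 to 9, -1.26 from 9 to 11 and -1.76 above 11. The members in these classes numbered 4, 9, 13 and 9, with median changes of -0.61, -0.97, -1.93 and -1.75. Set against the median of its own class, a member lay lower in 21 of 35 cases, and the median difference was -0.29. The members' median change was lower than that of all mRNAs in the first 3 classes and level with it in the brightest. Control log2 P/FM also went with signal level, with medians of -0.03, 0.45, 0.82 and 0.93 for all mRNAs in these classes. The members' control medians there were 0.18, 0.54, 1.54 and 0.89. In control the median difference of a member from its own class was 0.28. The part of brightness in the role groups was examined only in this way, and their differences in the change are given below with each group.

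**Figure D2:**
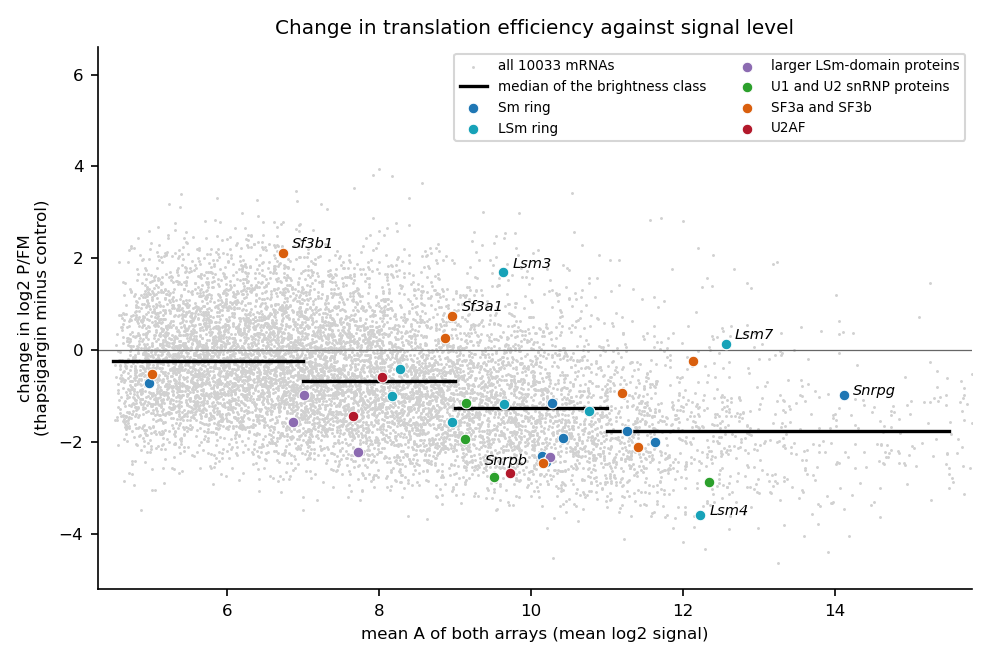
Change in log2 P/FM (y axis, log2 scale, thapsigargin minus control, not normalized) against mean A of both arrays (x axis, log2 signal) for all 10033 detected mRNAs in grey and the members in colour by role. Black lines are the medians of all mRNAs in the brightness classes, from -0.24 in the dimmest to -1.76 in the brightest. Lsm4 at -3.59 lies well below its class, and Lsm3, Sf3b1 and Lsm7 lie above theirs; spike-in scaling would raise all points by 2.55.

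The Sm ring mRNAs, which encode the proteins common to the spliceosomal snRNPs, lay at a median of 1.12 in control and -0.74 under stress in log2 P/FM, with a median change of -1.83. All 8 were lower under stress without normalization, beside 70.7% of all mRNAs, and 7 of 8 passed -0.8, beside 47.0%. In all 8 the P signal was lower and the FM signal higher on the stress array, beside 49.3% and 86.6% of all mRNAs. Of the 8, 5 lay below the median of their own brightness class, and the median difference was -0.36. The median change lay 1.12 below all mRNAs. This last difference was negative under each of 15 settings of signal, scaling, filter and unit, from -1.48 to -0.36. The 15 include the main setting, and also centring and spike-in scaling, which shift all mRNAs alike and so cannot alter it. The same holds for the other groups below. The SD of the change among the 8 was 0.64.

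Snrpb encodes SmB and its splice form SmB′. Its log2 signal was 11.93 in P and 8.30 in FM in control, and 10.84 in P and 9.51 in FM under stress. Log2 P/FM thus went from 3.63, the first of 10297 mRNAs in control, to 1.33, with a change of -2.30. It was the only member that met the resistant threshold, and it met the sensitive one as well. The study picked Snrpb from these arrays as an example of a well translated mRNA, so its rank is not independent evidence.

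The D proteins of the ring also began on the polysome side. For Snrpd1 (SmD1) P was 11.64 and FM 9.20 in control, and 10.68 and 10.15 under stress, so that log2 P/FM went from 2.44 to 0.53. For Snrpd2 (SmD2) P was 11.29 and FM 9.75 in control, and 9.42 and 10.31 under stress. Its log2 P/FM of 1.54 and -0.89 gave the lowest change of the ring, -2.43, and its A was lower by 0.65, which was the lowest change in A among the members. For Snrpd3 (SmD3) P was 10.98 and FM 9.26 in control, and 10.73 and 10.15 under stress, with log2 P/FM of 1.72 and 0.58. Its probes gave changes of -1.13 and -1.15, an SD of 0.016 over n = 2 probes. The changes of Snrpd2 and Snrpd3, -2.43 and -1.14, lay farther apart than the spread between probes.

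Snrpe, Snrpf and Snrpg encode the small proteins that enter the ring as a trimer. For Snrpe P was 11.99 and FM 11.29 in control, and 10.97 and 12.28 under stress, and log2 P/FM went from 0.70 to -1.31. For Snrpf P was 11.03 and FM 10.77 in control, and 10.89 and 12.38 under stress. Its log2 P/FM went from 0.26 to -1.49, its probes differed in the change by an SD of 0.026 (n = 2 probes), and its A was 0.74 higher under stress. Snrpe and Snrpf differed in how the change arose, because the P signal of Snrpe was 1.02 lower while that of Snrpf was 0.14 lower. For Snrpg P was 13.39 and FM 14.61 in control, and 13.13 and 15.32 under stress. Its log2 P/FM of -1.23 and -2.19 was the lowest of the ring on both arrays, and its change of -0.97 turned to 0.34 with the dye-normalized signals and to 0.94 with loess.

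Snrpn, the imprinted homologue of Snrpb that is known from neurons, was dim. P was 5.13 and FM 5.02 in control, and 4.56 and 5.16 under stress, with log2 P/FM of 0.11 and -0.60. Its overlapping probes, printed above, gave changes of -1.27 and -0.15, and the P signal of the first was not well above background under stress. The difference within this pair exceeded the usual probe spread, and with normexp background correction the change was 0.29. The Lsm2 pair, which shares 50 bases, gave -1.05 and -0.93.

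**Figure D3:**
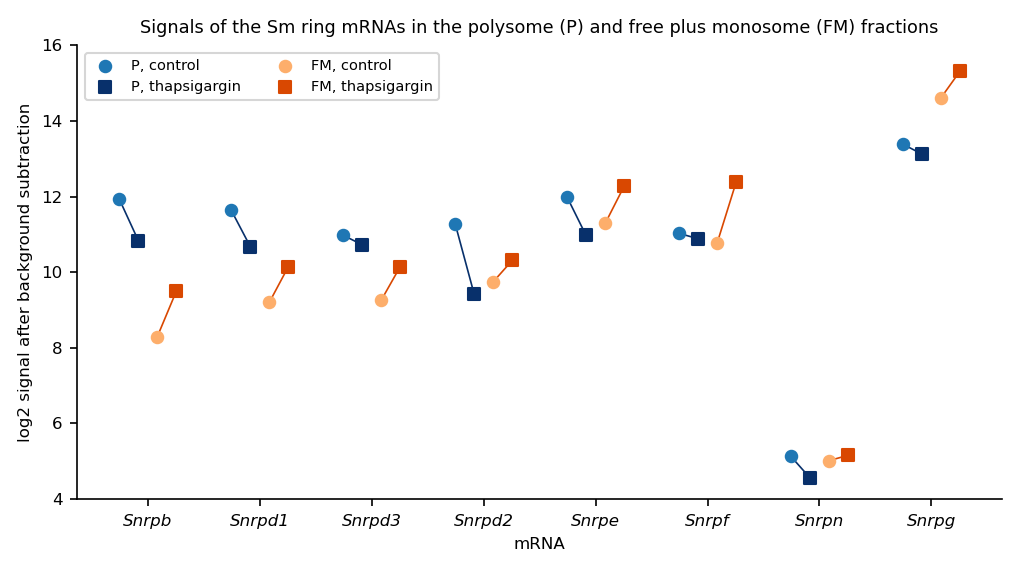
Log2 signal after background subtraction (y axis) of the 8 Sm ring mRNAs in the polysome fraction (P, blue) and the free plus monosome fraction (FM, orange) on the control array (circles) and the thapsigargin array (squares), as means over probes. All 8 have a lower P and a higher FM signal under stress as measured without normalization. Snrpb has the widest distance of P above FM in control, 3.63, and in Snrpg FM exceeds P on both arrays.

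The LSm ring mRNAs were widely spread in control, from -2.46 to 2.63. Their median log2 P/FM was 0.20 in control and -0.86 under stress. The control median was negative with dye-normalized signals (-0.48), loess (-0.59), centring (-0.14), single probes (-0.62) and mean A from 7 to 11 (-0.64). Its sign was thus not settled. The median change was -1.08. Of 8, 6 were lower, beside 70.7% of all mRNAs, and 5 were at -0.8 or lower, beside 47.0%. The change had an SD of 1.51 among the 8, and its median lay 0.01 above the brightness classes. Relative to all mRNAs the median change was lower under 12 of 15 settings and higher under 3. The group as a whole thus took no steady position beside all mRNAs, and Lsm4 and Lsm3 stood at its ends.

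Lsm4 had the highest control value of this group and the lowest change of all 35 members. P was 13.29 and FM 10.66 in control, and 11.99 and 12.95 under stress, so that log2 P/FM went from 2.63 to -0.96. Of all mRNAs, 0.289% had a change lower than its -3.59, and its change stayed negative with spike-in scaling, at -1.04. Lsm3 was its counterpart, with the lowest control value of all members and the highest change of the ring. For Lsm3 P was 8.72 and FM 11.18 in control, and 8.93 and 9.70 under stress. Log2 P/FM went from -2.46 to -0.77, a change of 1.69 that met the inducible threshold, while P differed by 0.22 and FM by -1.48. Its A was 0.63 lower under stress. Each of these mRNAs had 1 probe.

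The other LSm ring members lay between them. Lsm1, which belongs to the cytoplasmic ring, went from 1.16 to -0.41 with little difference in P (0.04) and an FM signal 1.61 higher. Lsm2 and Lsm10, the latter a part of the ring on U7 snRNA that serves histone mRNA processing, went from 0.54 to -0.44 and from 0.28 to -1.04. Lsm5 went from -1.56 to -2.73, the lowest value of a member under stress. Lsm6 went from -1.71 to -2.12, and all 4 of its probes lay on the FM side in control, from -1.93 to -1.36. Their changes ran from -0.76 to 0.15, the last from a probe whose control P signal was not well above background. Lsm7 was at 0.12 and 0.25, a change of 0.14 that is within the probe spread, with both fractions' signals lower under stress.

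The larger LSm-domain proteins act outside the common rings: Lsm11 in the U7 snRNP, and Lsm14a and Lsm14b in cytoplasmic mRNA repression. All 4 mRNAs were sensitive, beside 47.0% of all mRNAs, and their medians were 0.70 in control, -1.24 under stress and -1.88 for the change. The median lay 1.19 below the brightness classes, and all 4 lay below their class. Lsm12 had the lowest change, with P of 10.36 and FM of 9.97 in control, 9.37 and 11.30 under stress, and log2 P/FM of 0.39 and -1.92. Lsm14a had the lowest control value and the highest change, with P of 6.72 and FM of 7.03 in control, 6.52 and 7.80 under stress, and log2 P/FM of -0.31 and -1.28. Lsm14b had the highest control value of the group, with P of 7.14 and FM of 6.14 in control, and 6.82 and 7.37 under stress, and its log2 P/FM went from 1.00 to -0.55. The control FM signal of 1 of its probes was not well above background, so that probe gives a bound. Lsm11 began at the same level, 1.00, and reached -1.21.

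The 4 members among the U1 and U2 snRNP proteins had a median change of -2.34, with medians of 1.76 in control and -0.65 under stress. This was the lowest median change of the role groups, except with dye-normalized signals, with single probes and with mean A from 7 to 11. There the larger LSm-domain proteins were lower, and with single probes and with mean A from 7 to 11 the Sm ring was lower as well. All 4 were sensitive, beside 47.0% of all mRNAs. All 4 had a lower P and a higher FM signal under stress, beside 49.3% and 86.6% of all mRNAs. Their median lay 0.89 below the brightness classes, and relative to all mRNAs it was lower under each of 15 settings, from -1.67 to -0.97. Snrpc, which encodes the C protein of U1 and stabilises the pairing of U1 with the 5′ splice site, had the lowest change, -2.86. Its P was 13.40 and FM 11.25 in control, and 11.998 and 12.72 under stress. Snrpa1, for the A′ protein of U2, had the highest control value, with P of 10.55 and FM of 8.37 in control, 9.27 and 9.84 under stress, and log2 P/FM of 2.18 and -0.57. Snrpb2, for the B″ protein that partners it on U2 snRNA, had the lowest control value, with P of 9.53 and FM of 8.38 in control, 8.91 and 9.69 under stress, and log2 P/FM of 1.14 and -0.78. Snrpa, for the A protein of U1, had the highest change of the group, -1.14, with P of 9.66 and FM of 8.29 in control, and 9.42 and 9.20 under stress. Its 4 probes gave changes from -1.54 to -0.52, so each was lower under stress. The probe at -0.52 was the dimmest of them, with A of 6.54 in control, and the coordinates given for it cover only 8 bases. Probes of Snrpa, Snrpa1 and Snrpc are among those with predicted gene models listed. Snrnp70, which encodes the 70K protein of U1, falls outside the name rule and did not enter these medians. Its change was -1.01 at a mean A of 12.50, in a brightness class with a median change of -1.76.

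The SF3a and SF3b mRNAs went apart. Their median log2 P/FM was 0.76 in control and 0.29 under stress, and the median change of -0.38 was the highest of the role groups. Of 8, 5 were lower and 3 higher, beside 70.7% lower among all mRNAs, and 3 of 8 were sensitive beside 47.0%. The median change turned positive with normexp, dye-normalized signals, loess, centring and spike-in scaling, so its sign was not settled. Relative to all mRNAs it was higher under each of 15 settings, from 0.15 to 0.98, and it lay 0.89 above the brightness classes. A was higher under stress in all 8, by 0.09 to 0.94, as it was in 7707 of all 10033 mRNAs.

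Sf3b1 encodes the large scaffold subunit that contacts the branch point region. P was 6.44 and FM 6.67 in control, and 7.86 and 5.97 under stress, and log2 P/FM went from -0.23 to 1.89. The change of 2.12 was the highest among the members, and 98.5% of all mRNAs had a lower one. Its probes differed beyond the usual spread, with changes of 1.23 and 3.02, an SD of 1.27 (n = 2 probes). The FM signal of the second was not well above background under stress, so its value is a bound, and the first, which was at 0.37 in control, would not meet the inducible threshold by itself. Both probes had a higher P signal under stress.

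Sf3b4, which encodes an RNA-binding subunit, was the opposite case, with the highest control value and the lowest change of the group. P was 11.10 and FM 8.91 in control, and 10.19 and 10.44 under stress, and log2 P/FM went from 2.19 to -0.26. Sf3b5, a small subunit, went from 1.69 to -0.42. Sf3b2, a further subunit, went from 1.33 to 0.40, with both signals higher under stress, and its change of -0.93 turned to 0.46 with loess. Sf3b3 was at -0.10 and 0.17, a difference within the probe spread. Of the SF3a trimer, Sf3a1 went from 0.63 to 1.39, with probe changes of 0.06 and 1.45, Sf3a2 from 0.25 to -0.27 and Sf3a3 from 0.89 to 0.65. Sf3b1 and Sf3b4, subunits of one complex, thus differed in their change by more than the spread between probes.

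U2AF is a heterodimer of the products of U2af1 and U2af2, and U2af1l4 encodes a relative of the small subunit. All 3 mRNAs were lower under stress, beside 70.7% of all mRNAs, and 2 were sensitive, beside 47.0%. The medians were 1.34 in control, -0.28 under stress and -1.44 for the change. The median lay 0.76 below the brightness classes. U2af1 had the highest control value and the lowest change, with P of 10.59 and FM of 8.98 in control, 9.13 and 10.20 under stress, and log2 P/FM of 1.61 and -1.08. Its probes gave -2.78 and -2.58. U2af1l4 had the lowest control value and the highest change, with P of 8.40 and FM of 8.09 in control, 7.69 and 7.96 under stress, and log2 P/FM of 0.31 and -0.28. U2af2 went from 1.34 to -0.10, and its probes differed in the change by an SD of 0.0096 (n = 2 probes).

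**Figure D4:**
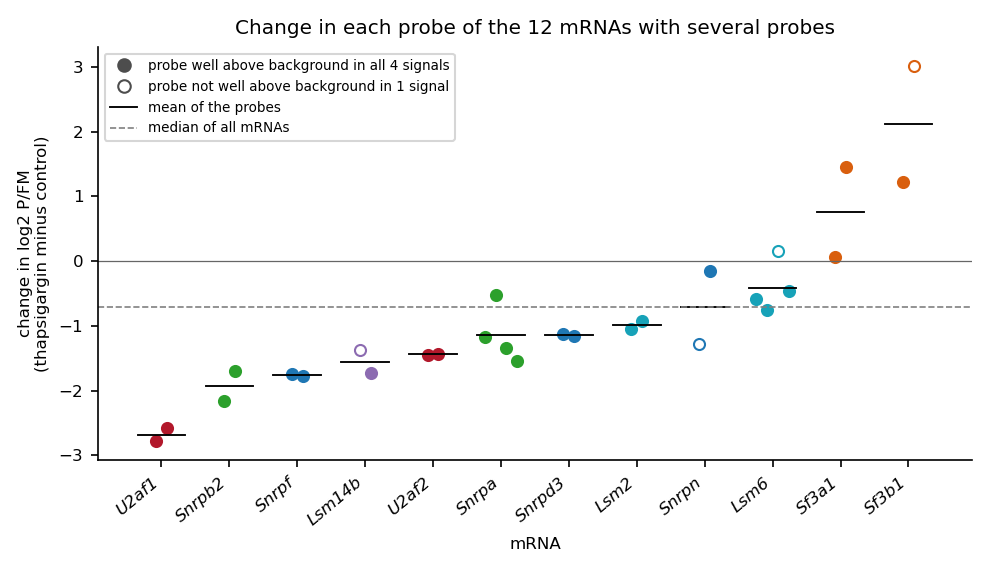
Change in log2 P/FM (y axis, log2 scale, thapsigargin minus control, not normalized) of each probe of the 12 members with several probes, ordered by their mean change (black bars); open circles are probes not well above background in 1 of 4 signals, and the dashed line is the median of all mRNAs, -0.71. Probes of U2af2, Snrpd3 and Snrpf nearly coincide, while those of Sf3b1, Sf3a1 and Snrpn lie far apart. Spike-in scaling would raise all points by 2.55.

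Small ring proteins and larger factors were then compared as classes drawn up by name, so a relation to protein size was not tested. In control the median log2 P/FM was 0.41 for the 16 small Sm and LSm mRNAs and 1.00 for the 19 larger factors, a difference of -0.59. Under stress the medians were -0.83 and -0.28, a difference of -0.55. In the small class 12 of 16 and in the larger 13 of 19 were sensitive, beside 47.0% of all mRNAs. The median changes were -1.25 and -1.44, so the difference in the change was 0.19. The SD of the change among members was 1.19 in the small class and 1.33 in the larger, each far above that difference. The control difference kept its sign under all settings tried, from -0.92 to -0.16, but it was smaller than the SD of 1.68 among the small mRNAs. The difference in the change took either sign, from -0.56 with normexp to 0.60 with A above 7. The classes were therefore not separated by their change, and the small class had the wider range in control, from -2.46 to 3.63 against -0.31 to 2.19.

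The signals of both fractions separated the members further. Among all mRNAs the median change was 0.02 in log2 P signal and 0.72 in log2 FM signal. Among members these were -0.43 and 0.94. P was lower in 28 of 35, beside 49.3% of all mRNAs. FM was higher in 31 of 35, which is close to the 86.6% of all mRNAs. SF3a and SF3b were the exception among the groups, with a median P change of 0.42 and P lower in 3 of 8. FM was lower in 4 members, Lsm3, Lsm7, Sf3b1 and U2af1l4. A was higher in 8 of 16 small mRNAs and in 15 of 19 larger ones, beside 7707 of all 10033 mRNAs, with median changes of 0.02 and 0.29, beside 0.37 for all mRNAs.

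**Figure D5:**
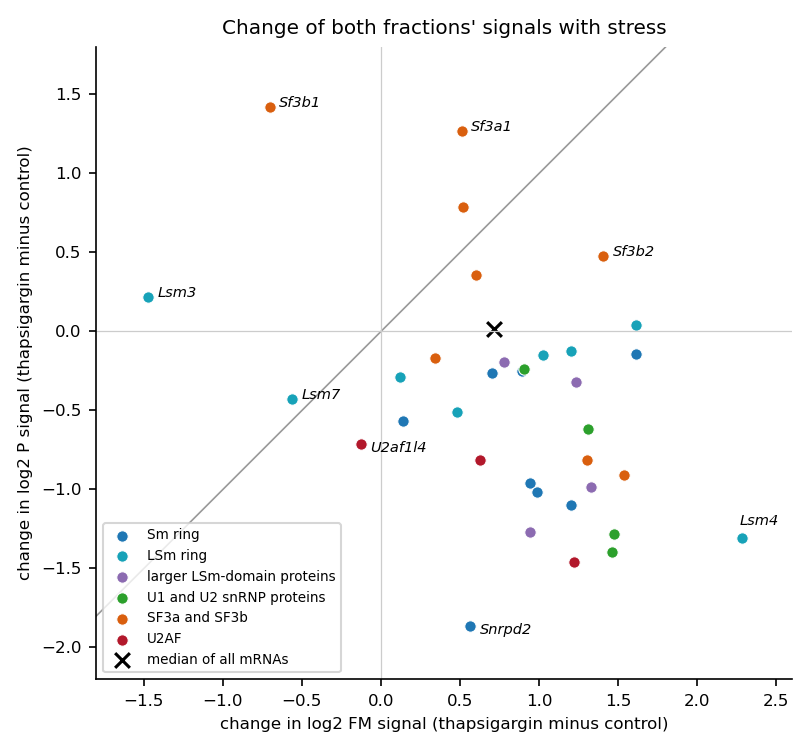
Change in log2 P signal (y axis) against change in log2 FM signal (x axis), both thapsigargin minus control and not normalized, for the 35 members by role, with the median of all mRNAs as a cross at 0.72 and 0.02. Points below the diagonal have lower P/FM under stress, which holds for 30 members before any scaling and for 4 after spike-in scaling. Sf3b1 and Lsm3 lie apart with a higher P and a lower FM signal, and Lsm4 has the highest FM change, 2.29.

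Other factors of the same machinery gave a frame for these values. The SMN complex and the methylosome load Sm rings onto snRNAs, and of 12 accessions for them all were detected, at a median of 1.02 in control and -0.66 under stress. Of these 12, 9 were sensitive, beside 47.0% of all mRNAs. Among them were Smn1, which went from 1.74 to -0.84, Clns1a, the chaperone of newly made Sm proteins, from 1.76 to -0.66, and Gemin2, from 1.59 to -1.04. Prmt5, the methyltransferase of Sm proteins, went from 0.30 to -0.83. Gemin5, which binds snRNA, had 2 accessions with changes of 0.70 and -0.85, and Gemin4 changed by -0.12. The assembly factors and the Sm ring that they load had median changes of -1.63 and -1.83. Their medians of mean A were unlike, 7.20 and 10.35, and the lists were not set against the brightness classes.

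The U5 and tri-snRNP proteins also held mRNAs with changes of opposite sign. All 17 accessions were detected, with medians of 0.75 and -0.09 and a median change of -0.97, and 9 of 17 were sensitive. Ppih, a prolyl isomerase of the tri-snRNP, with changes of -3.25 and -2.91 for its 2 accessions, Snrnp40 at -2.91 and Snrnp27 at -2.42 were lowest. Prpf8, the scaffold of the catalytic core, changed by 1.33, and Snrnp200, a helicase that unwinds U4 from U6, by 1.34 to a log2 P/FM of 2.05. Of the Prp19 complex, which joins when the spliceosome is activated, all 8 were detected and 5 were sensitive, with medians of 1.24 and 0.14. Of 8 decapping factors that work with the cytoplasmic LSm ring, 6 were detected and 1 was sensitive, with medians of 0.51 and 0.27. Ddx6, the RNA helicase of that pathway, went from 0.60 to 2.18. Over all lists, 24 of 43 detected accessions were sensitive, beside 47.0% of all mRNAs.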

How the data were processed

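NIH3T3 cells were represented by 1 control and 1 thapsigargin array, each from 3 pooled preparations. The deposited intensity values of spots and of their local background came from Agilent Feature Extraction 10.7.1, per the file headers and the submitters' processing notes, and were not normalized. Intensity values after the software's own background subtraction, detrending and dye normalization are deposited as well. The authors also deposited a table of log2 Cy3/Cy5 ratios, holding 32 of the members, which served as an alternative. Groups came from the labels.

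The local background (median) of a spot was taken from its mean signal, and a floor of 0.5 was set, which is the background method named in the study's methods. No normalization was applied. Outlier flags on either array removed 295 of 43379 spots (0.680%). Spots were averaged to probes and probes to accessions starting with NM, with A above 4.5. Gene symbols were checked in RefSeq tables of GRCm38.p6, in which all 35 members matched unchanged, and pathway lists were matched by current symbol or array name. No coordinates of that build were used. The steps were tested on simulated data. Python 3.11.15 (numpy 2.4.6, pandas 2.3.3), R 4.3.3 and limma 3.58.1 were used, the last for normexp (offset 50) and loess.

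Members and lists were chosen with earlier results of these data known. Signals are given in full for the Sm ring and, in each other role group, for the members with the highest and lowest control value and change. Other members are given by log2 P/FM. Members of the decapping, assembly, U5 and Prp19 lists are examples chosen after their values were seen. With 1 array per condition, no test was made, and precision is limited by the number of arrays. A split by protein length was not made, as no protein sequences were used here. The sequence of 1 further probe is not reported here.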

Additional observations from a re-analysis of the deposited data

How the results depend on the processing

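With 1 array per condition no library could be left out. No paired analysis was possible because each condition had 1 array. The split at 250 residues of protein length was not run. Values were called moved where they differed from the main value by more than the median SD between probes of one mRNA, 0.29 in control and 0.32 for the change. The main medians were 0.41 (small Sm and LSm) and 1.00 (larger factors) in control, -1.25 and -1.44 for the change, and -0.59 and 0.19 for the difference between the classes. Median spot signals, the authors' log2 values, A above 5.5, no filter on A, mRNAs with every probe well above background, single probes, gene symbols and leaving out Snrpn moved none of these 6 values.

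Spike-in scaling turned the median change of the small class to 1.30 and of the larger factors to 1.11, and moved their control medians to 0.82 and 1.41. Centring gave 0.074 and 0.67 in control and -0.62 and -0.81 for the change. Loess gave 0.0068 and 0.66 in control and -0.40 and -0.73 for the change. The dye-normalized signals gave 0.058 for the small class in control, changes of -0.44 and -0.96 and a difference in the change of 0.52. Normexp gave 0.34 for the larger factors in control, a control difference of -0.16, a change of -0.52 for the larger factors and a difference in the change of -0.56. Without background subtraction the change of the larger factors was -1.04 and the difference in the change -0.17. With A above 7 the larger factors were at 1.33 in control with a change of -1.93, and the difference in the change was 0.60. Members with mean A from 7 to 11 gave 0.85 for the small class in control and a control difference of -0.22. Without the larger LSm-domain proteins the larger factors were at 1.33 in control and the control difference was -0.92. Their change was then -1.14 and the difference in the change -0.10, which has the opposite sign to the main value. Both lay within the probe spread of the main values.

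The median change of each role group turned positive with spike-in scaling, to 0.72 for the Sm ring, 1.47 for the LSm ring, 0.67 for the larger LSm-domain proteins, 0.21 for the U1 and U2 proteins, 2.17 for SF3a and SF3b and 1.11 for U2AF. For SF3a and SF3b it was also positive with normexp (0.11), dye-normalized signals (0.71), loess (0.72), centring (0.25) and mean A from 7 to 11 (0.27). Spike-in scaling gave changes of 0.25 for Snrpb, 0.65 for Snrpd1, 0.12 for Snrpd2, 1.41 for Snrpd3, 0.55 for Snrpe, 0.80 for Snrpf, 1.58 for Snrpg and 1.84 for Snrpn. For the LSm proteins it gave 0.98 for Lsm1, 1.56 for Lsm2, 1.38 for Lsm5, 2.14 for Lsm6, 1.23 for Lsm10, 0.34 for Lsm11, 0.24 for Lsm12, 1.58 for Lsm14a and 1.00 for Lsm14b. For the larger factors it gave 1.41 for Snrpa, 0.62 for Snrpb2, 2.04 for Sf3a2, 1.62 for Sf3b2, 0.10 for Sf3b4, 0.43 for Sf3b5, 1.96 for U2af1l4 and 1.11 for U2af2. The change of Lsm6 was 0.40 with dye-normalized signals, 0.37 with loess and 0.22 with centring. That of Sf3b2 was 0.41 with dye-normalized signals and 0.46 with loess, and that of Snrpg 0.34 and 0.94. With normexp it was 0.38 for Sf3a2 and 0.29 for Snrpn, and with centring 0.11 for Sf3a2 and 0.041 for U2af1l4. Control values changed sign for Lsm12 (-0.33 with dye-normalized signals, -0.35 with loess), Snrpe (-0.16 and -0.13 likewise), Lsm14a (0.092 with spike-in scaling), Lsm14b (-0.043 with normexp) and U2af1l4 (-0.053 with normexp, -0.11 with loess, -0.0299 with centring). The shift by spike-ins is a constant, and the cause of the other moves was not tested. Probes not well above background in 1 signal limit Snrpn, Sf3b1, Lsm6 and Lsm14b.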

Other observations

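Other spots on the array carry the names of members but belong to records other than RefSeq mRNAs, so they entered no comparison. A cDNA record named Sf3b3 was read by 2 probes, with log2 P/FM of -4.78 and -4.39 in control and -3.21 and -2.56 under stress, where the coding Sf3b3 mRNA was at -0.10 and 0.17. The A of these probes was 7.87 and 9.06 in control and 5.56 and 6.90 under stress, and the first was not well above background under stress. A record named Lsm12 was at 0.04 and -1.53, where the coding Lsm12 mRNA was at 0.39 and -1.92. The other such spots, named Snrpd1, Sf3b5, Snrpd3 and Lsm3, were not well above background on either array.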
